A study of Mus musculus with 28 samples.

Results

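In ATAC-seq of skeletal stem/progenitor cells (SSPCs) from mouse limb bones, 21569 of 122246 open regions carried a peak in all 12 libraries. ATAC-seq inserts sequencing adapters with a transposase wherever DNA is accessible, so a peak marks a stretch of open chromatin. The regions were found by cutting each library's peak list to the length of the shortest (59183 peaks on chromosomes 1 to 19 and X) by −log10 q-value, merging peaks that shared at least 1 bp across the libraries, and keeping the regions with a peak in every library. The regions were thus selected on measured values, the −log10 q-values of their peaks, and their openness in all 12 libraries is not a finding. The other 100677 regions had a peak in 1 to 11 libraries.

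The cells were Ai9+ cells, which carry a red reporter switched on by Prx1Cre, a Cre recombinase driven in the limb mesenchyme of the embryo. From 20-week-old mice, CD31−CD45−Ter119− Ai9+ CD73+ cells of the growth plate (gpSSPCs) and CD31−CD45−Ter119− Ai9+ Sca1+ cells of the periosteum (pSSPCs) were sorted. All 4 groups share the Cre and the reporter, and in CKO mice (PrxCre; Z24fl/fl) the deletion reaches only cells of the Prx1 lineage. *Z24* (*Zmpste24*) encodes the protease that completes the maturation of prelamin A to lamin A. Each group had 3 ATAC-seq libraries from 3000 to 5000 sorted cells and 3 RNA-seq libraries from 1000 sorted cells. The labels enter PrxCre; Z24fl/fl for control and CKO samples alike, so the samples were told apart by their titles and the *Z24* alleles of these control mice are not settled here. The sources used here do not say whether libraries of a group came from separate mice, so p-values measure the spread between libraries.

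Most genes that every cell uses have promoters rich in CpG dinucleotides that are kept free of nucleosomes whether the gene is strongly or weakly transcribed. Enhancers, which lie away from the start site, open more selectively with cell type. Factors known for housekeeping promoters include NF-Y, a trimer that binds CCAAT boxes and can open chromatin, the ETS family, NRF1, YY1 and the SP family, while AP-1 and RUNX factors are known for cell-type enhancers. Regions open in every library of 2 related stromal populations were therefore described by their promoters first.

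The promoters below were chosen to show what strong and weak regions of the set look like. Each line gives the 250 bases before the start site of the RefSeq gene on GRCm38.p6 (mm10), 5′ to 3′ along the gene's strand. Capitals mark CCAAT boxes (CCAAT or its reverse ATTGG) in *Golph3l*, *Ivd*, *Scfd1*, *Ccng1* and *Zmpste24*, the ETS motif (CCGGAAGT or its reverse ACTTCCGG) in *Mrps27*, the TATA box TATAAA in *Fos* and the cAMP response element TGACGTCA in *Dusp1*.
Golph3l, chr3:95588684-95588933, plus strand: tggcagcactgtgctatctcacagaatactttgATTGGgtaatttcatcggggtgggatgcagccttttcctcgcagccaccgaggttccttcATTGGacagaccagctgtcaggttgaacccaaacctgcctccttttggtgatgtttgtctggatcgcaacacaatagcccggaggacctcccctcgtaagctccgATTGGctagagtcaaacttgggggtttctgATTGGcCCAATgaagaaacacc
Ivd, chr2:118861744-118861993, plus strand: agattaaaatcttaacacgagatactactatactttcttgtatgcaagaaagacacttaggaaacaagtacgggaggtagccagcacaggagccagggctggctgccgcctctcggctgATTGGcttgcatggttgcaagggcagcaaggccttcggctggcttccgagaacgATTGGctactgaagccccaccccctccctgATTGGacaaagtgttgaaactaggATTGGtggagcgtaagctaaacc
Scfd1, chr12:51377263-51377512, plus strand: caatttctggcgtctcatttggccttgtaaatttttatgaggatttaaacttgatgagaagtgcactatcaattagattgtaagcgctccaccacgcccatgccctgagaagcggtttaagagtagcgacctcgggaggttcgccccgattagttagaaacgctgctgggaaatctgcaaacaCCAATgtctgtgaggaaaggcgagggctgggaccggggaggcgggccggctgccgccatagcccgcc
Ccng1, chr11:40755287-40755536, minus strand: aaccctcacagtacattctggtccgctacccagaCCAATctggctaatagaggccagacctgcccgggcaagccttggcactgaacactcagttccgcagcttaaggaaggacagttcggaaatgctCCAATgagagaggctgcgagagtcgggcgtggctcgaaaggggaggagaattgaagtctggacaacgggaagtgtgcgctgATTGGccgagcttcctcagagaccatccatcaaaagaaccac
Mrps27, chr13:99344536-99344785, plus strand: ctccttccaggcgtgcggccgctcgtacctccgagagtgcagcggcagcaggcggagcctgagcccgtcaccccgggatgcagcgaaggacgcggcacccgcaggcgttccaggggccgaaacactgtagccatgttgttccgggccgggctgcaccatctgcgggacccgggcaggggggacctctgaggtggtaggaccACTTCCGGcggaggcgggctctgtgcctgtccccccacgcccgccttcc
Fos, chr12:85473640-85473889, plus strand: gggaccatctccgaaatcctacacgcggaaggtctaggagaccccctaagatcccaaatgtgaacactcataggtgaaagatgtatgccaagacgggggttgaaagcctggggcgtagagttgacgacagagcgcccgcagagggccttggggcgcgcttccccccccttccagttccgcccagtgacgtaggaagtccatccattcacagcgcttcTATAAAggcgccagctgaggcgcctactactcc
Dusp1, chr17:26508473-26508722, minus strand: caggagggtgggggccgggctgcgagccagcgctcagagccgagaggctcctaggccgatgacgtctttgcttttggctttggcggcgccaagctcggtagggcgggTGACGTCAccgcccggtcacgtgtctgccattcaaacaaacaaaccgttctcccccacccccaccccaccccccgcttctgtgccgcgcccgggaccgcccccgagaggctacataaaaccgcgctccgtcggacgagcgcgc
Zmpste24, chr4:121098211-121098460, minus strand: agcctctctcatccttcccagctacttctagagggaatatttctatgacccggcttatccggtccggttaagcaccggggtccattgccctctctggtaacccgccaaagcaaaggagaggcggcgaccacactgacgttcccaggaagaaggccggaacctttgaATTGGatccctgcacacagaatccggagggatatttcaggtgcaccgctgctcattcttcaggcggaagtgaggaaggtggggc

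*Golph3l*, *Ivd* and *Scfd1* are 3 of the 5 promoters with the highest fold enrichment of all, and their windows hold 5, 4 and 1 CCAAT boxes. *Ccng1*, the cyclin G1 gene and a target of p53, holds 3 and *Zmpste24* holds 1. *Mrps27* encodes a subunit of the mitochondrial ribosome, *Fos* a subunit of AP-1 and *Dusp1* a phosphatase of MAP kinases, and the last 2 are induced within minutes of a stimulus.

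Library depth lay between 12250713 tags after filtering (control pSSPCs, replicate 2) and 46756821 (CKO pSSPCs, replicate 3), and replicate 3 was the deepest library of every group. Before the cut the lists held 59183 to 101555 peaks. The cut ended at a −log10 q of 1.32 in control pSSPC replicate 2, which lost no peak, and of 14.9 in CKO pSSPC replicate 3. It left 37.1% to 40.4% of each library's kept peaks inside the 21569 regions. Over these regions the Spearman correlation of fold enrichment had a median of 0.865 between libraries of the same group (0.719 to 0.923), of 0.854 between genotypes of the same population and of 0.697 between populations. Replicate 3 of CKO gpSSPCs stood apart with a mean of 0.737 within its group and the lowest median fold enrichment in the set (6.68, compared with 10.1 in CKO pSSPC replicate 2). Together with the shallowest library, control pSSPC replicate 2, it set most of the boundary: of 3593 regions with a peak in 11 libraries, 1138 lacked only the former and 706 only the latter, while each other library accounted for 110 to 296. Without these 2 libraries 23502 regions had a peak in each of the others.

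Regions with a peak in 1 library and in all 12 were the most frequent classes, with 25593 and 21569 regions. A smaller maximum stood at 6 libraries with 19287 regions, of which 9510 were open in the 6 gpSSPC libraries and 7740 in the 6 pSSPC libraries. Only 1 was open in the 6 control libraries alone and 5 in the 6 CKO libraries alone.

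**Figure D1:**
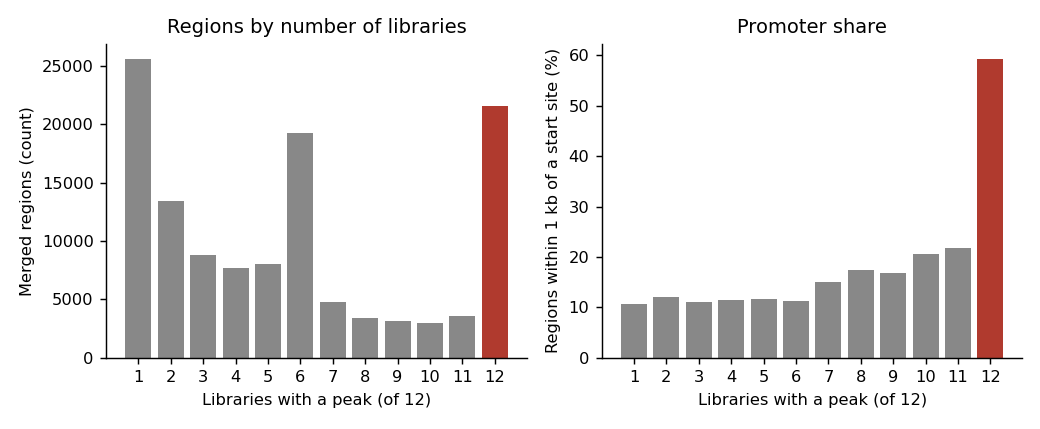
Number of merged ATAC-seq regions (left) and percent of them within 1 kb of an annotated start site (right), by the number of libraries with a peak, from 1 to 12. The promoter share stays between 10.6% and 21.8% up to 11 libraries and is 59.3% at 12.

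Promoters made up most of the regions open in all 12 libraries. Of the 21569 regions, 12787 (59.3%) lay within 1 kb of an annotated start site (GENCODE vM21), compared with 12.4% of the regions open in fewer libraries. The share did not climb steadily: it was 10.6% in regions of 1 library and 21.8% in regions of 11. The regions were also wide, with a median of 1196 bp (quartiles 964 and 1489, range 257 to 4252) compared with 561 bp. Merging over more libraries widens a region, so the single peaks were compared as well. The median peak length within a library was 699 to 1040 bp inside the set and 359 to 618 bp outside it. When the summit rather than the edge of the region was measured, 57.0% of the set and 10.6% of the other regions lay within 1 kb of a start site.

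The remaining 8782 regions lay in introns (4463), between genes (3907) or in exons (412). Their summits were a median of 12066.5 bp from the nearest start site (quartiles 5689 and 24889), and 779 were farther than 50 kb. These distal regions were narrower than promoter regions (median 1050 compared with 1291 bp). They were shared among 4520 nearest protein-coding genes, of which 2659 had 1 and 350 had at least 5. *Zmiz1*, a transcriptional coactivator, was the nearest coding gene of 16 regions. The corepressor *Bcor* followed with 15, and *Runx1*, a transcription factor of blood and skeletal progenitors, and *Tgfbr3*, a TGF-β coreceptor, had 13 each.

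Of 21755 annotated protein-coding genes, 12039 (55.3%) had one of the regions within 1 kb of a start site, 3204 (14.7%) had only a region open in fewer libraries and 6512 (29.9%) had none. Long intergenic noncoding RNA genes (13.1%) and processed pseudogenes (1.39%) rarely had one. Regions at protein-coding start sites that served starts on both strands were more frequent in the set (10.8%, 1270 of 11812) than among such regions of fewer libraries (1.49%, 130 of 8736). A wider region can reach more starts. Promoter regions of the set were wider than those of fewer libraries (median 1291 compared with 610 bp), and width was not held constant here.

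Most gene lists of basic cell functions were nearly complete, and histones were not. All 13 RNA polymerase II subunits, 77 of 78 mitochondrial ribosomal proteins, 80 of 83 cytosolic ribosomal proteins, 37 of 39 proteasome subunits, 44 of 46 genes of respiratory complex I, 52 of 54 initiation factors, 29 of 32 splicing factors, all 7 annotated chaperonin subunits and all 8 genes of cohesin and CTCF had a region of the set at a start site, compared with 55.3% of all protein-coding genes. The genes left out included copies with a restricted use: *Rpl10l* and *Rpl3l*, ribosomal paralogs of testis and muscle, had no region in any library, and the proteasome subunits *Psma8* of testis and *Psmb11* of thymus had one in 4 and 6 libraries. *Mrps10*, a subunit of the mitochondrial ribosome, missed only 1 library. Of 69 replication-dependent histone genes, 44 (63.8%) had a region of the set, near the 55.3% of all protein-coding genes, 12 had only a region open in fewer libraries and 13 had none. All 16 genes of the nuclear envelope, *Zmpste24* and *Lmna* included, and all 20 p53 targets were in the set.

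Genes that distinguish cell types were mostly absent. None of the 8 periosteal stromal markers, 4 pericyte, 6 blood, 5 endothelial and 3 muscle markers had a region in all 12 libraries, and 2 of 8 chondrocyte markers (*Sox9*, the master regulator of cartilage, and *Matn3*) and 1 of 5 osteoblast markers (*Col1a1*) did. *Acan* and *Col2a1*, the major proteoglycan and collagen of cartilage, had a region at the start site in 6 libraries each, and *Ly6a*, which encodes the Sca1 antigen used to sort pSSPCs, in 11. Of 5 marrow stromal markers 3 (*Cxcl12*, *Kitl*, *Ebf3*) were in the set. Of 25 regulators of mesenchymal and limb identity, 20 were, among them *Runx2*, *Msx1*, *Twist1* and *Snai2*. The exceptions were *Prrx1*, whose enhancer drives the Cre used here (9 libraries), *Prrx2* (11), *Tbx4* (6), *Tbx5* (5) and *Twist2* (10).

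Fold enrichment, the ratio of the tag pileup at the summit to the local background of the same library, was expressed as a percentile within each library's kept list, and the median over the 12 libraries was taken for each region. Because strong peaks survive the cut and the merge, high percentiles are partly what the rule used, and the following order within the set is a description. The median region stood at the 70.6th percentile, promoter regions at 75.8 and the others at 64.1. Across the 12 libraries the percentile of one region spanned a median of 37.7 points, 9367 regions stayed at or above the 50th percentile throughout, and 5976 moved by more than 50 points. Promoters formed 47.7% to 53.4% of the set in each step of 10 percentile points up to the 70th, 67.1% between the 80th and 90th and 79.6% above the 90th.

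At the top were promoters of genes with unrelated functions. At *Golph3l*, a Golgi protein (chr3:95588380-95589231), fold enrichment lay between 17.1 in CKO gpSSPC replicate 3 and 21.6 in control pSSPC replicate 2. At *Scfd1*, a vesicle transport factor (chr12:51377074-51378107), it lay between 16.7 and 22.2. At *Ivd*, the isovaleryl-CoA dehydrogenase of leucine breakdown (chr2:118861473-118862350), it lay between 13.9 and 22.1. Their lowest percentiles in any library were 99.6, 99.2 and 98.996, so they were near the top in both populations and genotypes. *Gins4*, a subunit of the replicative helicase (chr8:23237198-23238071), and *Cdc25c*, a mitotic phosphatase, completed the first 5. Their transcript levels varied widely: *Cdc25c* had 0 CPM per kb (counts scaled to library size and gene length) in all 12 RNA-seq libraries, *Golph3l* had a median of 2.03 and *Gins4* of 19.8.

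Away from promoters the highest region lay in an intron of *Mrps27* (chr13:99352874-99353911), with fold enrichments of 17.7 to 25.7. It was followed by an intergenic region on chromosome 3 nearest to *Gm25352* (chr3:5860257-5860905, 18.02 to 21.5), an intron of the zinc finger gene *Zfp286* (chr11:62756555-62757426, 12.5 to 22.4), a region near *Gm47729* (chr10:16588966-16590143, 9.70 to 22.02), and an intron of *Cdk8*, a kinase of the Mediator complex (chr5:146260900-146261433, 14.7 to 22.05).

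Lists differed in where their promoters stood on this scale. Mitochondrial ribosomal proteins had a median percentile of 90.5, complex I genes 89.4, chaperonin subunits 88.5, proteasome subunits 87.6, initiation factors 82.7, cytosolic ribosomal proteins 80.6, RNA polymerase II subunits 79.2, splicing factors 77.8, nuclear envelope genes 75.7, histones 69.8 (44 genes at 28 regions), p53 targets 69.3 and cohesin and CTCF 65.9. All promoter regions stood at 75.8. The range within a list was wide: among mitochondrial ribosomal genes *Mrps27* stood at 99.6 and *Mrps34* at 33.7, and among cytosolic ones *Rpl27* at 99.2 and *Rpl23a* at 8.77. Among proteasome genes *Psmc4* stood at 99.8, among complex I genes *Ndufv1*, which carries the NADH site, at 99.3, and among nuclear envelope genes *Fntb*, a subunit of the farnesyltransferase that acts on prelamin A before *Zmpste24*, at 97.5 and *Lmna* at 44.4. The 20 regulators of mesenchymal identity had a median of 37.1 and spread widely: 7 stood above the 75th percentile, among them *Msx1* (84.2) and *Snai2* (79.3), and 4 below the 25th, with *Zeb2* (14.1) and *Nfix* (14.6) the lowest.

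Among p53 targets *Ccng1* (98.8) and the nuclease *Aen* (95.3) stood at the top and the cell cycle inhibitor *Cdkn1a* (14.0) and the apoptosis gene *Bbc3* (7.95) at the bottom. Of a list of 20 genes taken from the study of these cells, the 12 that had a region in all libraries spanned the scale: the cytokine *Il7* 85.0, *Nt5e*, which encodes the CD73 used to sort gpSSPCs, 79.6, *Snai2* 79.3, *Gbp6* 76.4, *Zmpste24* 71.6, the integrin *Itga2* 66.9, fibronectin (*Fn1*) 57.3, *Sox9* 46.6, *Itga11* 25.2, *Bcl3* 22.2, *Cdkn1a* 14.0 and *Col5a1* 9.88. The other 8 of this list were open in fewer libraries, and beside those named above these were *Aspn* (5), *Col3a1* (6), *Cxcl9* (7), *Lum* (9) and *Dcn* (10).

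Immediate early genes, which encode AP-1 subunits and other factors induced within minutes of a stimulus, were the clearest exception on this scale. All 14 had a region in every library, with a median fold enrichment percentile of 4.53, yet by summit pileup, the number of tags at the summit, the same regions had a median percentile of 99.02. The local background, computed as the pileup plus 1 divided by fold enrichment and given relative to the library's median over the set, was 4.12 for them, compared with 1.11 for all promoter regions. *Junb* had the percentiles 1.24 by fold enrichment and 99.8 by pileup with a background of 7.46. *Fos* had 1.46 and 99.03 with 6.43, and *Jun* 4.59 and 99.5 with 5.74. In each the tags at the summit were among the most numerous of the library and so were those around it.

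The region with the highest percentile within 1 kb of any annotated start was taken for each gene, and *Dusp1* (92.6), *Atf3* (75.7) and *Nr4a1* (75.1) owed their values to such starts. At the single start given by RefSeq, the percentile by fold enrichment was 3.02 for *Dusp1*, 11.5 for *Atf3* and 50.3 for *Nr4a1*, and the 10 immediate early genes with such a region had a median of 5.07, with 98.7 by pileup. By these starts the medians were 90.0 for mitochondrial ribosomal, 80.2 for cytosolic ribosomal and 70.3 for p53 target genes, but 25.2 for 7 genes of the list taken from the study. Of the 2 chondrocyte markers in the set only 1 had such a region, at the percentile 75.2. The region given for *Sox9* (46.6) was therefore not recorded at its RefSeq start. In RNA the 14 genes had a median of 304 CPM per kb (219 to 407 over the 12 libraries).

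**Figure D2:**
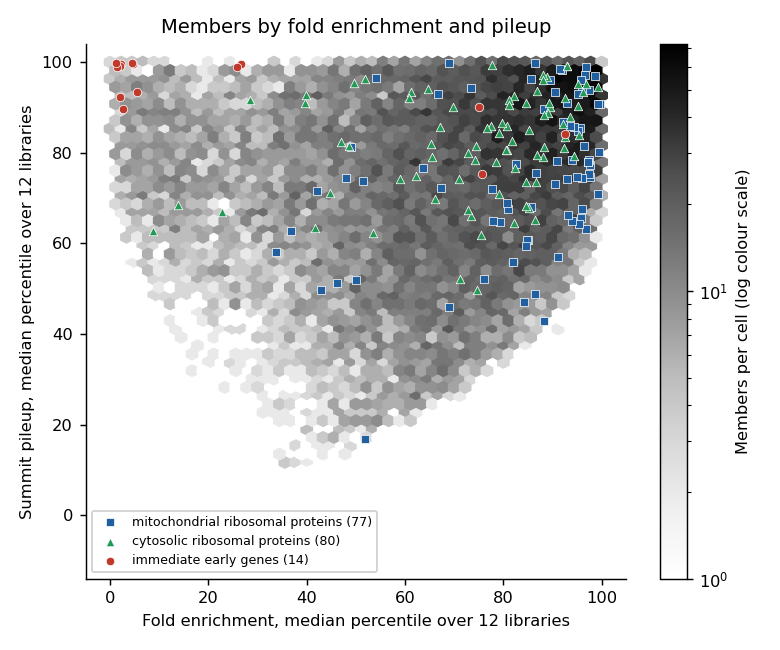
Each region open in all 12 libraries by the median percentile of its fold enrichment (horizontal) and of its summit pileup (vertical) over the 12 libraries, with shading for the number of regions on a log scale and symbols for the promoters of 77 mitochondrial ribosomal, 80 cytosolic ribosomal and 14 immediate early genes. Most immediate early genes sit at the upper left edge (medians 4.53 and 99.02) and mitochondrial ribosomal genes at the right (90.5 and 75.4).

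*Zmpste24* itself went the other way, with a percentile of 71.6 by fold enrichment and 38.4 by pileup and a local background of 0.441. Its fold enrichment was 12.1, 8.38 and 10.8 in control gpSSPCs, 10.96, 9.57 and 8.41 in CKO gpSSPCs, 9.40, 8.22 and 8.88 in control pSSPCs and 6.86, 10.2 and 10.1 in CKO pSSPCs. The 4 groups overlapped. The log2 difference between CKO and control was −0.02 ± 0.19 in gpSSPCs and 0.03 ± 0.19 in pSSPCs (SE, n = 3 per group, limma as described below; adjusted p = 0.988 and 0.975).

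The widest region of all (4252 bp, chr17:39843080-39847331, near *Gm26917*) had fold enrichments of only 2.02 to 2.36 but the highest pileups of the set and 18.1 times the typical local background. In mm10 this stretch holds a copy of the ribosomal RNA precursor, a gene present in many near-identical copies, so its values cannot be assigned to one copy. The next widest were at *Synj2*, an inositol phosphatase (chr17:5975133-5979009, 3.84 to 7.94), and at *Socs2*, an inhibitor of cytokine signalling (chr10:95414330-95418135, 3.94 to 6.18). At the threshold itself, the weakest regions inside were a region in an intron of *Cyth3* (chr5:143668914-143670177), with a fold enrichment of 3.77 in its weakest library, and a region near *AC134555.2* (chr17:83120640-83121165), with 3.09. Just outside lay a region at chr6:90476846-90477561, which was left out because its peak in control pSSPC replicate 1 had the same −log10 q as the last peak kept (4.23).

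The promoters of the set were rich in CpG. Among 32575 RefSeq promoters (250 bases before to 50 after the start), 12506 overlapped a region open in all 12 libraries, 3859 a region open in fewer and 16210 none. Median GC content was 62.3%, 54.3% and 47.0% in these classes. The median ratio of observed to expected CpG was 0.792, 0.370 and 0.201, and 77.5%, 27.1% and 6.08% of the promoters were above 0.6.

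The short motifs of NRF1, ETS, YY1 and SP factors and the cAMP response element were most frequent at the set. The NRF1 motif (GCGCATGC) was found in 5.68% of promoters at the set, 1.11% at other regions and 0.81% without a region, compared with 2.71% of all promoters. The ETS motif was found in 8.62%, 1.53% and 0.86% (3.92% of all), the YY1 motif (AAGATGGCG) in 3.18%, 0.26% and 0.29% (1.40% of all), and the SP motif (GGGCGG) in 68.4%, 35.7% and 10.8% (35.9% of all). The cAMP response element stood at 3.40%, 1.19% and 0.72% (1.81% of all). Both strands were searched and each promoter was counted once. GC-rich letters are more frequent in GC-rich sequence, and base composition was not held constant here.

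Motifs that are rich in A and T or known for cell-type enhancers were less frequent in the set. The TATA box was found in 5.70% of its promoters, 11.5% of those at other regions and 20.3% of those without (13.7% of all), the AP-1 motif (TGANTCA) in 4.60%, 10.8% and 9.65% (7.85% of all), and the RUNX motif (TGTGGTT) in 3.22%, 6.27% and 6.66% (5.29% of all). The CTCF core motif of 12 letters was found in 0.94%, 1.09% and 0.15% (0.56% of all), the E-box CACGTG in 10.3%, 7.18% and 4.77% (7.20% of all), the TEAD motif GGAATG in 11.3%, 16.3% and 16.8% (14.6% of all) and the SOX motif ACAATGG in 1.63%, 2.95% and 5.43% (3.68% of all). At least 1 CCAAT box was found in 37.8%, 31.2% and 38.9% (37.6% of all). At least 2 were found in 14.8%, 7.64% and 10.3%, and at least 3 in 5.33%, 1.53% and 2.29%.

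Within the set, however, the CCAAT box went with fold enrichment. At least 1 box was present in 26.2% of the 675 promoters in regions up to the 25th percentile, 29.5%, 33.2% and 35.5% in the next steps (to the 50th, 75th and 90th), 50.3% of the 2861 between the 90th and 99th and 74.5% of the 235 above the 99th. For 2 or more boxes the shares were 8.30% at the bottom and 46.4% at the top, compared with 11.7% of all promoters. For 3 or more, as in *Golph3l*, *Ivd* and *Ccng1* above, they were 1.78% and 17.4%, compared with 3.36%. The ETS motif moved from 2.52% to 13.9% between the 90th and 99th percentile and 12.8% above, while NRF1 was highest between the 75th and 90th (7.17%) and stood at 2.55% above the 99th. Median GC content was lower at the top (56.7%) than at the bottom (64.0%). A match of these letters is a description of the sequence and not a measured binding site.

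**Figure D3:**
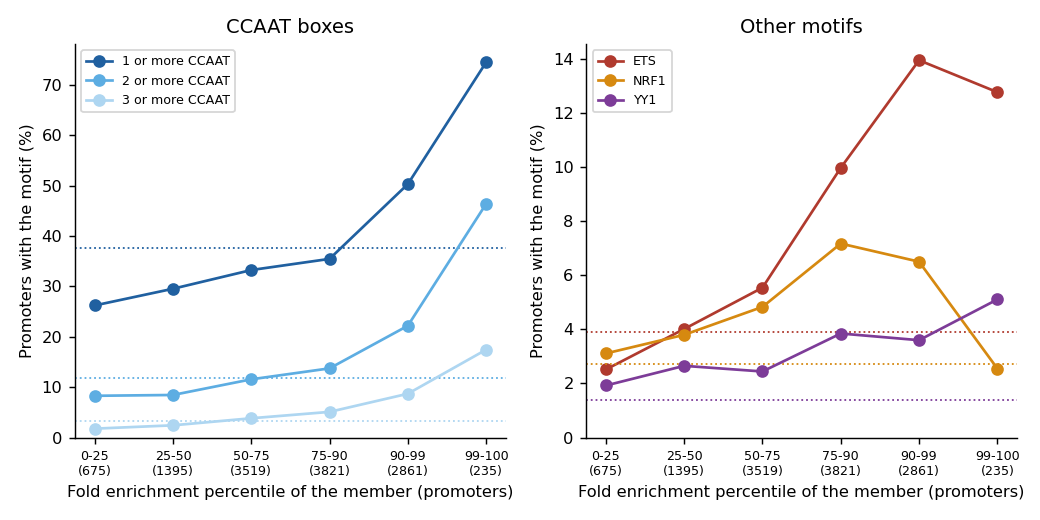
Percent of RefSeq promoters at regions open in all 12 libraries that hold a motif (vertical), by the fold enrichment percentile of the region (horizontal, 6 steps, 235 to 3821 promoters each), for counts of CCAAT boxes (left) and other motifs (right). Dotted lines give the share over all 32575 promoters; the CCAAT lines climb from 26.2% to 74.5%, across the 37.6% of all promoters.

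The first comparison within the set asked whether fold enrichment of these regions differed between CKO and control cells in each population. Fold enrichment is a ratio to the local background, and pileup and background were not compared between groups here. Log2 fold enrichment was quantile-normalized and fitted with limma over 27158 regions with a peak in at least 2 of 3 libraries of each group, with Benjamini-Hochberg adjustment over all of them. Requiring a peak in every library limits how far a region can differ between groups. In gpSSPCs no region of the set passed an adjusted p of 0.05 (0% of all tested), and 1099 (5.10%, compared with 5.85% of all tested) had an unadjusted p under 0.05. With the replicate number as a block none passed and 1137 (5.27%, compared with 6.13%) had an unadjusted p under 0.05. With fold enrichment ranked in percentiles in place of quantile normalization 2 passed. The median absolute difference between CKO and control was 0.107 on the log2 scale, within the median standard error of 0.144.

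In pSSPCs 34 regions of the set rose in CKO and none fell, among 56 of 27158 tested (0.206%). The share called in the set was 0.158%, below this background. With percentile ranks 30 rose and 6 fell. The 34 had a median log2 difference of 0.88 (0.52 to 1.21), and in each the 3 CKO libraries lay above the 3 control libraries. There were 12 at promoters, 10 in introns and 12 between genes, on 15 chromosomes. The count rests on single libraries: it was 5 without CKO pSSPC replicate 3, 8 without CKO pSSPC replicate 2, 10 without control pSSPC replicate 2, 22 without control pSSPC replicate 1, 55 without CKO gpSSPC replicate 3 and 97 without control pSSPC replicate 3. It was 11 when only the pSSPC libraries were fitted and 24 without the 2 libraries that stood apart.

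The largest difference was at chr12:20196209-20197661, at the start of the unnamed gene *Gm48667*. Fold enrichment was 7.63, 8.22 and 7.07 in control pSSPCs and 14.97, 20.6 and 16.8 in CKO pSSPCs, while it was 16.7, 15.3 and 12.8 in control gpSSPCs and 14.2, 15.9 and 7.42 in CKO gpSSPCs. In these deposited values control pSSPCs were low and the other groups high, apart from CKO gpSSPC replicate 3, the library with the lowest median. After quantile normalization that library (log2 3.33) lay above the control pSSPC libraries (2.87, 3.01 and 2.74) and below the rest (3.74 to 4.26). The log2 difference between CKO and control pSSPCs was 1.21 ± 0.15 (SE, n = 3 per group; limma adjusted p = 0.00343). At *Msantd1*, a gene of the Myb/SANT-like domain family (promoter, chr5:34907716-34908869), control pSSPCs had 4.29, 3.46 and 5.76 and CKO pSSPCs 8.24, 11.3 and 10.6, a difference of 1.17 ± 0.18 (limma adjusted p = 0.0114). Control gpSSPCs had 13.1, 12.5 and 9.34 there, above both pSSPC groups in 2 of 3 libraries.

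The next 3 in size were a region near *Gm45356* (chr8:57741792-57742781, 1.16), one at the start of *Gm5953* (chr12:19288011-19289685, 1.14) and one near *Dhrs7*, a short-chain dehydrogenase (chr12:72674296-72675298, 1.14). Other named promoters among the 34 were *Hhex*, a homeobox factor, *Sh3bgrl2*, *Cfap69*, *Slc37a3*, *Ica1* and *Zfp976*. At *Hhex* fold enrichment was 5.22, 4.76 and 5.47 in control pSSPCs and 7.96, 12.2 and 9.34 in CKO pSSPCs, compared with 9.39, 7.96 and 8.51 in control gpSSPCs. In 33 of the 34, as at *Gm48667* and *Hhex*, control pSSPCs had the lowest mean of the 4 groups, and in 24 all 9 other libraries lay above all 3 control pSSPC libraries.

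Against gpSSPCs, in a comparison that uses the same control pSSPC libraries, the 34 regions were higher in control gpSSPCs by a median log2 difference of 0.96. In CKO cells the median was 0.10. That comparison uses the CKO pSSPC libraries, which also helped to choose the 34 regions, so both medians and the order of the groups are descriptions. The region in which control pSSPCs did not have the lowest mean was an intron of *Cemip*, a hyaluronan-degrading factor, where fold enrichment was 4.35 to 4.81 in gpSSPCs, 6.43, 5.88 and 5.50 in control pSSPCs and 10.98, 11.1 and 9.06 in CKO pSSPCs. In gpSSPCs the 34 regions had a median CKO difference of 0.00, with 17 of 34 higher. The difference between the populations in the CKO effect passed the test at 1 region of the set, chr12:20196209-20197661, given above (1.44 ± 0.21, SE, limma adjusted p = 0.0338, 0.00736% of all tested called). This call was lost when any 1 of 7 libraries was left out (replicates 1 and 2 of control gpSSPCs, 1 and 3 of CKO gpSSPCs, 1 of control pSSPCs, and 2 and 3 of CKO pSSPCs), in a fit of the set alone and without the 2 libraries that stood apart. There were 10 calls without control pSSPC replicate 3, 4 without CKO pSSPC replicate 1, 3 with a replicate block and 5 with percentile ranks.

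Of the 34 regions, 5 lay between 18 and 24 Mb of chromosome 12 (at or near *Gm48667*, *Gm5953*, *Gm20472*, *Mrto4-ps2* and *5730507C01Rik*), a stretch chosen after the values were seen. It held 24 regions of the set, of which 20.8% were called. The median log2 difference of the 24 was 0.13 and 15 were higher in CKO. An unadjusted p under 0.05 was found at 9, all higher in CKO, compared with 9.92% of all regions tested. The control pSSPC libraries include the shallowest of all. The part of depth in these calls was not tested.

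**Figure D4:**
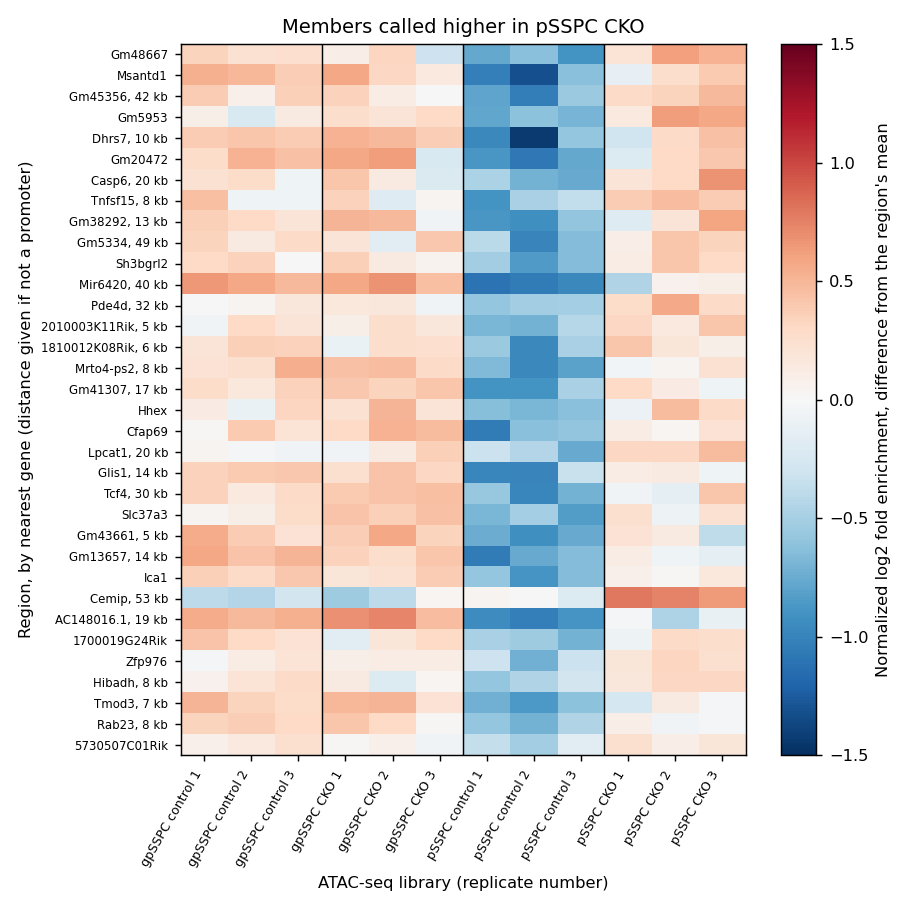
Normalized log2 fold enrichment of the 34 regions called higher in CKO pSSPCs (rows, named by nearest gene) in the 12 ATAC-seq libraries (columns), as the difference from each region's mean. The 3 control pSSPC columns are the lowest of the 4 groups by mean in 33 of 34 rows.

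The second comparison asked where the 2 populations differed. In controls 3638 of the 21569 regions passed (16.9%, compared with 19.1% of all tested), 1766 higher in gpSSPCs (9.88% of all tested) and 1872 higher in pSSPCs (9.24% of all tested). With percentile ranks the split was 1076 to 2092. In CKO cells 3277 passed (15.2%, compared with 17.2%), 1689 higher in gpSSPCs (8.23% of all tested) and 1588 in pSSPCs (8.94% of all tested). Leaving out 1 library moved these counts by over 1.5 times in 3 fits, to 2164 in controls without control gpSSPC replicate 2 and to 1881 and 2027 in CKO cells without CKO pSSPC replicate 2 or 3. The 2 comparisons share no library, but they come from the same fit with a shared spread per region, so their calls are not independent. Both called 1689 regions, 46.4% of the control calls and 51.5% of the CKO calls, and 1687 of them had the same direction, 796 higher in gpSSPCs and 891 in pSSPCs. At 16343 regions (75.8%) neither was called. Among the called regions of the set, differences of more than 2-fold were found at 301 in controls and 192 in CKO cells. Promoters were called less often than the other regions, 11.6% compared with 24.5% in controls and 9.66% compared with 23.3% in CKO cells, although this difference was not tested.

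In controls the regions with the largest differences were away from coding promoters. Highest in gpSSPCs was chr11:109011561-109012134, near *Gm11668* and 68 kb from *Axin2*, a feedback inhibitor of Wnt signalling. Fold enrichment there was 20.8, 18.1 and 12.1 in control gpSSPCs and 4.64, 4.77 and 3.25 in control pSSPCs, and the groups did not overlap (log2 difference 2.01 ± 0.19, SE, n = 3 per group). Others were at chr17:64480505 near *Mir6420*, chr11:109891379 near *Gm11697*, chr1:38450234 in an intron with *Aff3* as the nearest coding gene and chr1:71990349 near *Gm5528*. In CKO cells the promoter of *Sulf1*, a sulfatase that edits heparan sulfate (chr1:12717877-12719209), had 12.96, 11.4 and 8.76 in gpSSPCs and 4.91, 4.89 and 4.42 in pSSPCs, a difference of 1.38.

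Highest in pSSPCs was a region in an intron near *Chst11*, a chondroitin sulfotransferase (chr10:83069503-83070316). It had 2.61, 2.93 and 3.06 in control gpSSPCs and 14.8, 11.4 and 11.9 in control pSSPCs, a log2 difference of −2.02. A region in an intron with *Myl3* as the gene of the nearest start site (chr9:110732157-110733618) was also among the 5 highest in controls. So were one in an intron of *Nfatc1*, a calcineurin-dependent factor, and one in an intron of *Kcnma1*, a potassium channel (chr14:23885167-23886519). At *Kcnma1* fold enrichment was 4.45, 4.59 and 4.46 in control gpSSPCs, 12.3, 15 and 15.3 in control pSSPCs, 4.35, 4.85 and 4.49 in CKO gpSSPCs and 16.7, 15.1 and 13.9 in CKO pSSPCs. The populations were apart in both genotypes by about the same distance, with log2 differences of −1.55 and −1.58. In CKO cells introns of *Tshz2*, a zinc finger repressor, and *Trpv4*, a mechanosensitive channel, were also among the 5 highest in pSSPCs.

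Promoters of the lists were called between populations in varying numbers, beside 19.1% of all regions tested in controls. There 3 of 77 mitochondrial ribosomal promoters were higher in gpSSPCs and 1 in pSSPCs, 2 of 80 cytosolic ones were higher in pSSPCs, and 3 of 44 complex I promoters were higher in gpSSPCs. Of the 44 histone genes at 28 regions, 1 was higher in gpSSPCs and 4 in pSSPCs, of 20 p53 targets 1 and 2, of 20 mesenchymal regulators 0 and 2, and of the 12 genes of the list taken from the study 1 and 3. None of the promoters on any list passed the test of CKO against control in either population, where 0% and 0.206% of all regions tested passed. The region given for *Sox9* was not recorded at its RefSeq start. It had 4.28, 5.12 and 4.97 in control gpSSPCs and 9.51, 11.4 and 9.65 in control pSSPCs. Fold enrichment was thus lower in gpSSPCs (log2 difference −0.98 ± 0.16, SE, limma adjusted p = 0.00063). In CKO cells the *Sox9* difference was −0.31 (limma adjusted p = 0.206).

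*Runx2*, the master regulator of osteoblasts, was lower in gpSSPCs in both genotypes (−0.65 and −0.71), as was *Gbp6* (−0.55 and −0.58). *Perp*, a p53 target of cell adhesion, was higher in gpSSPCs in both (1.08 and 0.79), as was *Syne1*, which links the nuclear envelope to the cytoskeleton (0.48 and 0.60). *Nt5e* was lower in gpSSPCs in controls (−0.61; limma adjusted p = 0.00768) although its product CD73 was the antigen that selected them. In CKO cells 1 of the 12 genes of the list taken from the study passed as lower in gpSSPCs and 0 as higher, compared with 3 and 1 in controls. At *Lmna*, which encodes the lamin A precursor, CKO gpSSPCs had 9.10, 8.73 and 7.50 and CKO pSSPCs 6.30, 6.08 and 4.69, a difference of 0.75 (limma adjusted p = 0.00394), compared with 0.35 in controls (limma adjusted p = 0.134). Whether the differences at *Sox9* and *Lmna* changed with genotype was covered by the fit of the difference, which called neither.

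RNA of the genes at these regions was then examined. Total counts lay between 1333260 and 5315709 per library. Replicates 2 and 3 differed by less than sampling noise in every group (chi-square per degree of freedom 0.805 to 0.972 over genes with 5 to 99 counts, compared with 10.2 to 14.2 for pairs with replicate 1), and they were summed and counted as 1 sample, which leaves 2 samples per group. Replicate 1 stood apart in all 4 groups, with the fewest genes detected (12082 to 12981, compared with 15776 to 17207).

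*Zmpste24* had 11, 48 and 80 counts in the 3 libraries of control gpSSPCs and 2, 21 and 29 in CKO gpSSPCs. It had 1, 51 and 84 in control pSSPCs and 0, 28 and 41 in CKO pSSPCs. In replicates 2 and 3 this was 15.1 to 16.6 CPM in control and 7.24 to 8.32 CPM in CKO cells, and in replicate 1 it was 4.71 and 1.14 CPM in gpSSPCs and 0.815 and 0 CPM in pSSPCs, from at most 11 counts. The libraries labelled CKO were lower at every replicate number in both populations, but replicate 1 was lower than the others in all groups and the change did not pass the test (log2 −1.14 ± 1.93 in gpSSPCs and −1.19 ± 1.92 in pSSPCs, SE; edgeR adjusted p = 1.0). Counts were summed over the gene and not over the floxed part, so transcripts that lack it would still count.

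Marker RNA went with the labelled populations. *Acan* had 6969, 15926 and 19774 counts in control gpSSPCs and 603, 1354 and 1946 in control pSSPCs, and *Col2a1* was also higher in gpSSPCs. *Ly6a* had 711, 2752 and 4033 counts in control gpSSPCs and 1482, 8701 and 14271 in control pSSPCs. Marker RNA of other cells was present too. *Hba-a1*, a hemoglobin gene, had 21, 6748 and 10309 counts in control gpSSPCs and was far lower in replicate 1 of every group. *Ptprc*, the defining CD45 gene of blood cells, had 0 to 30 counts and *Pecam1* 0 to 146. The 4 osteoblast markers outside the set had a median of 1512 CPM per kb (275 to 7151 over the 12 libraries), and *Col1a1* had 566. In controls these 4 were higher in gpSSPCs by a median log2 difference of 2.13 and *Col1a1* by 0.60. In bulk samples fewer cells of a type and less RNA per cell cannot be told apart.

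Genes with a region of the set at the start site carried most of the RNA. The 12014 protein-coding genes of this kind that were in the count tables held a median of 79.3% of all gene counts (76.0% to 84.0% over the 12 libraries), compared with 14.6% in the 3200 genes with a region open in fewer libraries and 0.70% in the 6480 genes without. A median of 91.4% of them were detected in a library (78.0% to 92.8%), compared with 45.8% (24.9% to 49.2%) and 9.34% (3.43% to 10.5%). The classes did not overlap in any library. Their median level was 2.98 CPM per kb (1.91 to 3.29), and it was 0 in the other classes. Genes of the fewer class included some of the most abundant RNAs: *Col2a1* had a median of 580 CPM per kb, *Ly6a* 851 and *Prg4*, the lubricin gene, 3014.

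**Figure D5:**
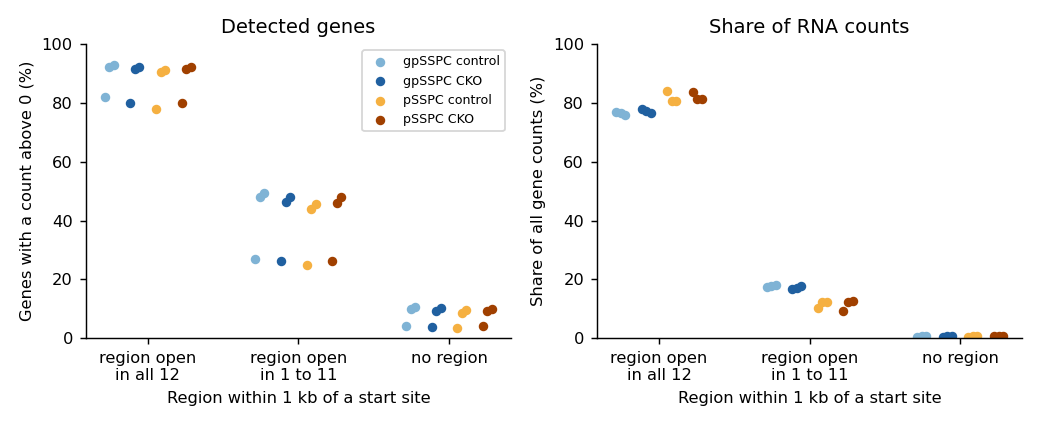
Percent of protein-coding genes detected (left) and percent of all gene counts they hold (right) in each of the 12 RNA-seq libraries, by whether the gene had a region open in all 12 ATAC-seq libraries, only in fewer, or none within 1 kb of a start site. The first class holds 76.0% to 84.0% of the counts in every library.

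Among genes of the set, RNA followed both measures of openness differently. By fold enrichment percentile the median level was 6.59 CPM per kb up to the 25th percentile (521 genes), 3.50 and 2.82 in the next steps (to the 50th and 75th) and 2.81 above (6926 genes). By summit pileup it was 0 up to the 25th percentile (37 genes), 0.41 and 1.98 in the next steps and 3.64 above the 75th (8573 genes). *Fos* and *Junb*, low by the first measure and at the top of the second, had medians of 1711 and 969 CPM per kb. Distal regions gave a smaller difference: genes with a region of the set at the start site had a median of 3.45 CPM per kb when they were also the nearest coding gene of a distal one (3359 genes) and 2.81 when they were not (8655 genes). The 1161 genes with only a distal region had a median of 0 and 43.6% were detected, compared with 18.4% of the 8519 genes with neither.

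List genes spanned a broad range of RNA. Cytosolic ribosomal genes of the set had a median of 270 CPM per kb over the 12 libraries, complex I genes 89.9, RNA polymerase II subunits 50.4, proteasome subunits 44.4, mitochondrial ribosomal genes 19.4, initiation factors 16.0, mesenchymal regulators 8.35 and nuclear envelope genes 2.42. The order by RNA was not the order by fold enrichment, in which the mitochondrial ribosomal promoters stood above the cytosolic ones.

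No gene with a region of the set at the start site differed in RNA at an edgeR adjusted p of 0.05 in any of 4 contrasts (0% of 13173 genes tested, 11014 of them in the set). For CKO against control an unadjusted p under 0.05 was found at 19 of them in gpSSPCs (0.173%, compared with 0.220% of all genes tested) and 236 in pSSPCs (2.14%, compared with 2.10%). For gpSSPCs against pSSPCs it was found at 625 in controls (5.67%, compared with 6.19%) and 387 in CKO cells (3.51%, compared with 4.31%). Other fits made calls. DESeq2 called none for CKO against control, and between populations it called 161 in controls (2.26%, compared with 3.1% of all genes with an adjusted p) and 61 in CKO cells (0.990%, compared with 1.65%). With the replicate number as a block edgeR called 1 and 5 for CKO against control in gpSSPCs and pSSPCs (0.0607% and 0.0987% of all tested) and 339 and 191 between populations (3.08% and 1.73%, compared with 3.61% and 2.36% of all tested). With each library as a sample it called none for CKO against control and 413 and 235 between populations (3.90% and 2.22%, compared with 4.54% and 2.96%), counts in which replicates 2 and 3 are nearly the same library. Between populations the share called among genes of the set was below that of all genes in each of these fits, a difference that was not tested. The absence of calls in the fit of 2 samples per group therefore does not show that RNA was alike.

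The genes nearest to the 34 regions that rose in CKO pSSPCs had no RNA change that passed. *Rab23*, a GTPase of Hedgehog signalling, had an unadjusted edgeR p of 0.0178 and a log2 difference of −2.61 ± 0.92 (SE, adjusted p = 1.0), with 11.9, 3.81 and 3.85 CPM per kb in control pSSPCs and 1.18, 1.27 and 1.49 in CKO pSSPCs. Its region rose from 9.30, 8.20 and 10.1 to 14.7, 13.8 and 12.1. *Msantd1* was too low to be tested, with 0 to 1.43 CPM per kb. The region given for *Sox9*, not recorded at its RefSeq start, had lower fold enrichment in control gpSSPCs. *Sox9* RNA was 422, 252 and 248 CPM per kb there and 166, 69.2 and 66.7 in control pSSPCs (log2 1.49 ± 0.59, SE, edgeR adjusted p = 0.709). *Nt5e* had 28.9, 22.9 and 23.3 CPM per kb in control gpSSPCs and 6.25, 6.43 and 6.24 in control pSSPCs (log2 2.02 ± 0.52, SE, edgeR adjusted p = 0.381). *Trpv4* had an intron region with higher fold enrichment in pSSPCs in CKO cells. Its RNA was 67.5, 39.8 and 40.6 in control gpSSPCs and 13.6, 8.89 and 8.02 in control pSSPCs. These 3 genes were set side by side after their values were seen. In RNA their control libraries did not overlap between the populations. For *Sox9* and *Nt5e* RNA and fold enrichment in controls pointed in opposite directions. For *Trpv4* the directions were also opposite, but fold enrichment was from CKO cells and RNA from controls.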

How the data were processed

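The 12 ATAC-seq and 12 RNA-seq libraries were used, with 3 per group; single-cell libraries were not used here. For ATAC-seq the authors aligned reads with Bowtie2 to mm10, removed mitochondrial and duplicate reads and ran MACS2 2.2.7.1 on every library by itself, with no control library (shift −100, extension 200, effective genome size 1.87e+09, at most 1 duplicate tag), and replicates were not pooled. The deposited fold enrichment is a ratio of the summit pileup to the local background, the deposited pileup signal counts tags and is not scaled for depth, and the deposited −log10 q-values and p-values were computed by the authors within the library. For RNA-seq the authors aligned reads with STAR, counted genes with HTSeq and removed duplicates by molecular identifiers, and the deposited counts are not normalized. The labels also name bedtools, DESeq2 and HOMER. Tool versions other than that of MACS2 are not given in the sources used here.

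Regions were annotated with GENCODE vM21 and RefSeq promoters, both on GRCm38, the build of the files. Differences in fold enrichment were tested with limma 3.58.1 (trend) in R 4.3.3, a missing peak being left out of the fit, and differences in counts with edgeR 4.0.16 (quasi-likelihood, TMM). DESeq2 1.42.0, other normalizations, filters, the replicate number as a block and fits without single libraries were alternatives. Gene levels are CPM (counts scaled to library size with TMM) per kb of gene length. Of 53801 genes, 52013 were matched on chromosomes 1 to 19 and X. No rows without a gene name were present.

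Same-numbered control and CKO gpSSPC libraries of ATAC-seq deviated together (correlations 0.35, 0.22 and 0.52), so their numbers were taken to pair them, from the values alone. The pSSPC libraries (0.018, 0.011 and 0.33) shared only a number. Same-numbered RNA-seq libraries deviated together (0.51 to 0.56), but after summing 2 samples per group remained, too few to establish pairing, so the fit without the block was kept and the blocked counts are given beside it. Motifs had been planned around peak summits. No genome sequence was used here, so they were searched in RefSeq promoters instead. Regions, gene lists and tests were chosen with earlier results of these data known. Named regions and genes are the 5 promoters and 5 other regions of highest percentile, the 3 widest, up to 5 per direction of the largest called non-overlapping differences per contrast, the 2 regions on either side of the threshold, a list of 20 genes taken from the study, and from each list the highest and lowest 2, while others named were chosen after their values were seen. Some items that this rule picks are not reported here.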

Additional observations from a re-analysis of the deposited data

Results flagged for a closer look

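The CKO effect on fold enrichment differed between the populations at chr12:20196209-20197661, at the start of *Gm48667*. The log2 difference between CKO and control was −0.23 in gpSSPCs and 1.21 in pSSPCs, and the difference between these was 1.44 ± 0.21 (SE, 3 libraries per group; limma interaction test, adjusted p = 0.0338). It was the only region of the set called in this test, and 1 of 2 among all 27158 regions tested. As deposited, fold enrichment was low in its control pSSPC libraries (7.63, 8.22 and 7.07) and in CKO gpSSPC replicate 3 (7.42). The other 8 libraries lay between 12.8 and 20.6. After quantile normalization CKO gpSSPC replicate 3 (log2 3.33) lay above the control pSSPC libraries (2.74 to 3.01) and below the other 8 (3.74 to 4.26). The call was lost when any 1 of 7 libraries was left out (replicates 1 and 2 of control gpSSPCs, 1 and 3 of CKO gpSSPCs, 1 of control pSSPCs, and 2 and 3 of CKO pSSPCs), in a fit of the set alone and without the 2 libraries that stood apart.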

How the results depend on the processing

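The number of regions open in every library was 8816 when each list was cut to its 20000 strongest peaks, and 21702 to 22706 when 1 library was left out. Their promoter share was 83.7% with 20000 peaks, 54.7% with no cut, 55.7% without the 2 libraries that stood apart (an alternative chosen after seeing the data), and 56.1%, 64.5% and 54.8% with starts within 100 bp, starts within 3 kb and protein-coding genes only. Regions that differed between CKO and control gpSSPCs numbered 2 with percentile ranks and 0 to 1 when 1 library was left out. For pSSPCs the number was 11 in a fit of the 2 groups alone and 5 to 97 (34 in the fit of all 12) when 1 library was left out. The number for gpSSPCs against pSSPCs was 2164 to 4349 in controls and 1881 to 3526 in CKO cells when 1 library was left out. For the difference in CKO effect it was 5 with percentile ranks, 3 with the replicate number as a block, 0 in a fit of the set alone, 0 without the 2 libraries that stood apart and 0 to 10 when 1 library was left out.

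For RNA, genes called with the replicate block were 1 and 5 for CKO against control in gpSSPCs and pSSPCs and 339 and 191 for gpSSPCs against pSSPCs in control and CKO cells. In the last 3 of these contrasts 3, 36 and 21 were called with no filter on low counts. These were 0.0232%, 0.279% and 0.163% of genes of the set, compared with 0.0244%, 0.435% and 0.274% of all genes tested. For the 2 contrasts between populations 413 and 235 were called with each library as a sample, and 161 and 61 with DESeq2. All 4 counts were 0 when 1 library was left out, as they were with all libraries, so these fits say nothing about stability. Without replicate 1 a group had 1 sample, assumed to vary like the other groups, and without replicate 2 or 3 it still had 2. The median RNA level was 15.6 CPM when not divided by length. The replicate block changed no other count by more than 1.5 times, and with it the ATAC-seq count for CKO pSSPCs was 32 and for gpSSPCs 0. The cause of the changes was not tested. The 2 planned motif alternatives, which need genome sequence around summits, were not run.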
